A study of Mus musculus with 6 samples.

Results

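The aldehyde dehydrogenases examined here were 9 listed genes, *Aldh1a1*, *Aldh1a2*, *Aldh1a3*, *Aldh1a7*, *Aldh1b1*, *Aldh2*, *Aldh3a1*, *Aldh3a2* and *Aldh9a1*, in mouse liver lacking the insulin receptor in hepatocytes. They were chosen from their family name with the liver differences of these same arrays in view, so the differences of the listed genes between the groups are given as a description, with no p-value, and counts from fits over the whole array are printed only beside the array's own share. Of the 9 genes, 8 were measured, by 13 of the 10833 probe sets that carried 1 gene symbol each, which together covered 8251 genes. A probe set is a group of short DNA probes designed against 1 transcript. No probe set carried the symbol of *Aldh1b1*, and it has no value here.

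The Liver Insulin Receptor Knockout (LIRKO) mice had the genotype IR flox/flox albumin:CRE +, and their Flox littermates the genotype IR flox/flox albumin:CRE -, so both groups carried the floxed receptor gene. The albumin promoter drives Cre in hepatocytes, and the receptor gene of other liver cells is not its target. All mice were male, 2 to 3 months old, fed chow, not fasted, and of a mixed background that included 129/sv, C57BL/6, FVB and DBA. Liver RNA was hybridised to 3 LIRKO and 3 Flox Affymetrix MG-U74A-v2 arrays, and each array held the pooled RNA of several mice, so the spread between arrays is not the spread between mice. Fewer cells of a type and less RNA per cell cannot be told apart in such samples.

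Values are the deposited log2 levels, on which a difference of 1 is a doubling. Differences are LIRKO minus Flox. The level of a probe set also depends on how well its probes bind, so levels are compared between arrays and not between genes.

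Aldehyde dehydrogenases oxidise reactive aldehydes to carboxylic acids with NAD+ or NADP+. ALDH1A1, ALDH1A2 and ALDH1A3 oxidise retinal to retinoic acid, the ligand of the retinoic acid receptors. Mitochondrial ALDH2 clears the acetaldehyde made from ethanol, and ALDH3A2 handles long-chain fatty aldehydes from membrane lipids. In the liver, most of this capacity lies in hepatocytes, and several members also belong to the response to foreign compounds.

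LIRKO 1 stood apart from LIRKO 2 and LIRKO 3 over the whole array, and this bears on every value below. The SD over all 12422 probe sets was 2.00 for LIRKO 1 but 1.72 and 1.78 for LIRKO 2 and LIRKO 3, while the Flox arrays spanned 1.96 to 2.01. Probe sets were ordered by their Flox level into 50 groups. In the brightest group, the median differences of LIRKO 1, LIRKO 2 and LIRKO 3 from the Flox mean were -0.02, -1.46 and -1.27, and in the dimmest group -0.01, 0.25 and 0.17. Bright probe sets were thus lower, and dim probe sets higher, on LIRKO 2 and LIRKO 3 as a rule, whatever their gene, and LIRKO 1 did not share this trend. The probe set for the insulin receptor gene, *Insr*, read 5.37, 5.99 and 6.06 on the LIRKO arrays and 5.45, 5.22 and 5.38 on the Flox arrays. Whether its probes lie in the deleted part was not known, so it gives no check of the genotype.

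**Figure D1:**
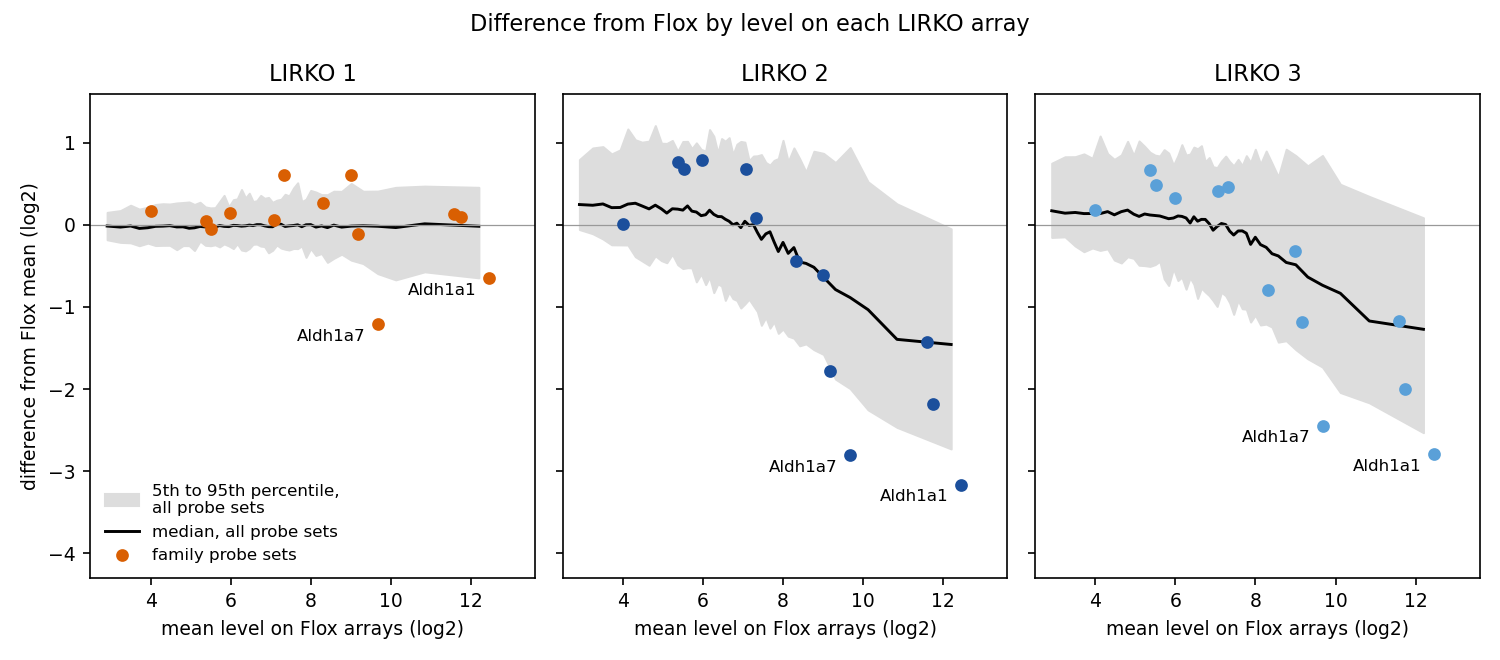
Difference of each LIRKO array from the Flox mean (vertical axis, log2) against the mean Flox level (horizontal axis, log2), with the median (line) and the 5th to 95th percentiles (band) of all probe sets in 50 groups by level, and the 13 aldehyde dehydrogenase probe sets as points. The band bends down at high levels on LIRKO 2 and LIRKO 3 and stays level on LIRKO 1, and *Aldh1a7* and the bright *Aldh1a1* probe set lie below the median on all 3 arrays.

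*Aldh1a1* and *Aldh1a7* are neighbours on chromosome 19. In the RefSeq annotation of GRCm38.p6, *Aldh1a1* spans chr19:20492583-20643463 and *Aldh1a7* chr19:20692953-20727556, with 49489 bases between them. RefSeq promoters, taken as 250 bases before to 50 bases after an annotated start, were matched for 6 of the 9 genes, with 7 starts in all. The 2 windows below are shown because these neighbours had the lowest differences of the family on the deposited values. The first is the second annotated start of *Aldh1a1*, chr19:20601718-20602017 on the plus strand. The other is the start of *Aldh1a7*, chr19:20727507-20727806 on the minus strand. Both are written 5′ to 3′, and the capitals mark the longest run of bases that the pair shares.
Aldh1a1: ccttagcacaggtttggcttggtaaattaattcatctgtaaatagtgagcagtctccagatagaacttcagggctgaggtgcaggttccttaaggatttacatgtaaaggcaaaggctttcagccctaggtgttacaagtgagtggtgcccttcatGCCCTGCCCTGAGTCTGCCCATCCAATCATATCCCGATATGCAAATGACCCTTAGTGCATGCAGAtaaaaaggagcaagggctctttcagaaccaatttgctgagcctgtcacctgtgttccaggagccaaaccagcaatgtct
Aldh1a7: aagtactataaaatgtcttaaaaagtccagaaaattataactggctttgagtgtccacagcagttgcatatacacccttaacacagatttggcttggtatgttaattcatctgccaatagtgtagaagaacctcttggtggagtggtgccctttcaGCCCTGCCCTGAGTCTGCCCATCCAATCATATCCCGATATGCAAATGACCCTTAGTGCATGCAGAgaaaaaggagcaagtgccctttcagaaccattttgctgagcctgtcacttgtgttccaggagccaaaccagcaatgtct

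The capitals form a run of 65 identical bases at the same place in both windows, and 224 of the 282 aligned bases were identical, or 79.4%. In the other 20 pairs of promoters within the family, the longest shared run was 6 to 10 bases and 51.1% to 67.1% of aligned bases were identical. The whole run was found in 2 of 32851 promoters, those printed above. It holds 1 copy each of the octamer ATGCAAAT and of CCAAT as written, which is the minus strand of the chromosome for *Aldh1a7*. Searched on both strands, ATGCAAAT was in 3 of the 7 promoters of the family, the third being that of *Aldh1a2*, and in 1.74% of all promoters. CCAAT was in 6 of the 7, and in 37.4% of all promoters. These matches describe the sequence and were not tested as binding sites.

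*Aldh1a7*, a mouse cytosolic aldehyde dehydrogenase close in sequence to *Aldh1a1*, read 8.47, 6.87 and 7.23 on the LIRKO arrays and 9.88, 9.37 and 9.79 on the Flox arrays. Every LIRKO value was below every Flox value, with LIRKO 1 the nearest to the Flox range. The mean was 7.53 ± 0.838 in LIRKO livers and 9.68 ± 0.27 in Flox livers (SD, n = 3 each), a difference of -2.15 (SE 0.40) or a 4.45-fold lower level. Taken array by array, LIRKO 1, LIRKO 2 and LIRKO 3 stood at -1.21, -2.81 and -2.45 from the Flox mean.

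*Aldh1a7* lay well below other probe sets of its level on all 3 LIRKO arrays. Among the 248 probe sets of the same level group, the median differences of LIRKO 1, LIRKO 2 and LIRKO 3 were -0.02, -0.89 and -0.74. *Aldh1a7* was the 3rd lowest of them on LIRKO 1, the 4th lowest on LIRKO 2 and the 3rd lowest on LIRKO 3. On LIRKO 1, whose level was 2.31-fold below the Flox mean, it was the 27th lowest of all 12422 probe sets. Cyclic loess, a normalization that removes such trends between arrays, left differences of -1.20, -2.33 and -2.08 on LIRKO 1, LIRKO 2 and LIRKO 3. The *Aldh1a7* level was below the Flox mean on each LIRKO array, as deposited and after cyclic loess. The gene was chosen with these arrays in view, so its ranks are a description and test nothing.

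*Aldh1a1*, the cytosolic retinal dehydrogenase of adult liver, was read by 2 probe sets that did not move alike. The bright probe set, 100068_at, read 11.79, 9.28 and 9.65 on the LIRKO arrays and 12.39, 12.50 and 12.44 on the Flox arrays. All LIRKO values were below all Flox values, with a mean of 10.24 ± 1.36 in LIRKO livers and 12.45 ± 0.0538 in Flox livers. The difference was -2.21 (SE 0.61), and the 3 LIRKO arrays differed widely, at -0.65, -3.17 and -2.80.

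In the brightest group of 249 probe sets, 100068_at was the 13th lowest on LIRKO 1 and the 4th lowest on both LIRKO 2 and LIRKO 3. Its LIRKO 1 level was 1.57-fold below the Flox mean and the 83rd lowest of all probe sets. After cyclic loess its differences were -0.69, -1.84 and -1.72, so a lower level remained on each array and the mean difference shrank to -1.42. The dim *Aldh1a1* probe set, 161956_at, read 5.47, 6.20 and 6.0 on the LIRKO arrays and 5.34, 5.72 and 5.51 on the Flox arrays. These ranges overlapped, and its difference was 0.37 (SE 0.21), opposite in sign to that of 100068_at. The deposited values hold no detection calls, so whether the dim probe set was above background was not known. Whether the probes of *Aldh1a1* and *Aldh1a7* read each other's transcript was not tested.

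**Figure D2:**
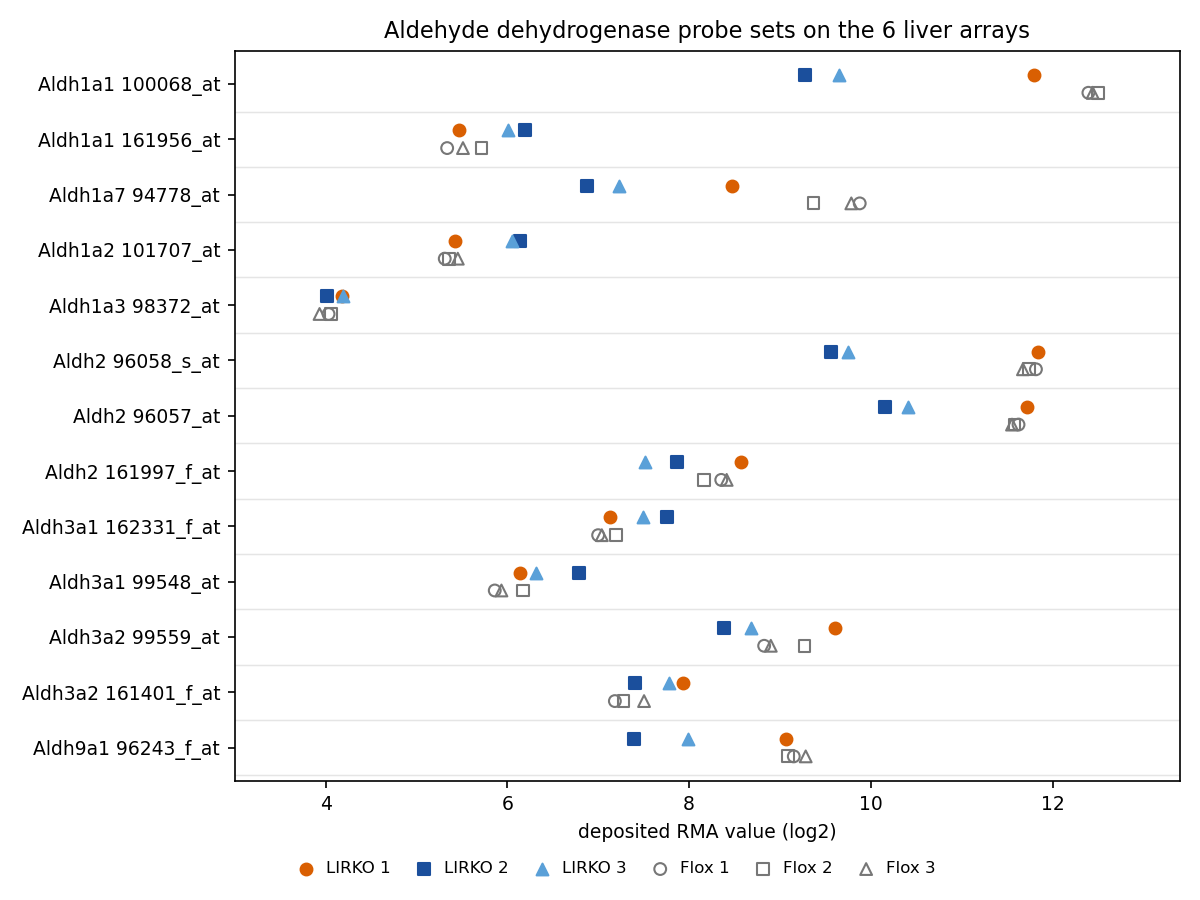
Deposited log2 level (horizontal axis) of each aldehyde dehydrogenase probe set (rows) on the 3 LIRKO arrays (filled points, upper in each row) and the 3 Flox arrays (open points, lower in each row). Filled and open points separate fully for the bright *Aldh1a1* probe set, *Aldh1a7* and *Aldh9a1*, and in the other 10 rows they overlap.

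The other *Aldh1a* genes measured, *Aldh1a2* and *Aldh1a3*, did not share these lower values, but their probe sets were dim, at percentiles 27.1 and 9.8 of Flox level. Whether they were above background, and so could show a lower level, was not known. On LIRKO 2 and LIRKO 3, their level groups had median differences of 0.19 and 0.12 for *Aldh1a2*, and 0.21 and 0.14 for *Aldh1a3*. *Aldh1a2*, which makes retinoic acid in the embryo and in mesothelial and stromal cells, read 5.43, 6.14 and 6.05 on the LIRKO arrays and 5.31, 5.36 and 5.45 on the Flox arrays. LIRKO 1 lay within the Flox range and LIRKO 2 and LIRKO 3 above it, with a difference of 0.50 (SE 0.20), or 0.42 after cyclic loess. *Aldh1a3*, best known from the developing eye and nasal region, read 4.18, 4.02 and 4.20 on the LIRKO arrays and 4.03, 4.06 and 3.93 on the Flox arrays. Its groups overlapped, with a difference of 0.12 (SE 0.11) that was 0.01 after cyclic loess.

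*Aldh2*, the mitochondrial acetaldehyde dehydrogenase, was read by 3 probe sets, and on all of them the level on LIRKO 1 was above the highest Flox level while those on LIRKO 2 and LIRKO 3 were below the lowest. Probe set 96058_s_at read 11.84, 9.57 and 9.75 on the LIRKO arrays and 11.82, 11.74 and 11.67 on the Flox arrays, a difference of -1.36 (SE 0.57). Probe set 96057_at read 11.72, 10.16 and 10.41 on the LIRKO arrays and 11.63, 11.58 and 11.55 on the Flox arrays, a difference of -0.82 (SE 0.38). The 2 *Aldh2* probe sets fell in the brightest level group with 100068_at of *Aldh1a1*. Against that group's median differences of -0.02, -1.46 and -1.27, 96057_at stood at 0.13, -1.43 and -1.18, near those medians. Probe set 96058_s_at stood at 0.09, -2.18 and -2.0, below the medians on LIRKO 2 and LIRKO 3, where it was the 36th and the 38th lowest of 249. After cyclic loess the difference was -0.62 on 96058_s_at and -0.06 on 96057_at. The remaining probe set, 161997_f_at, read 8.58, 7.87 and 7.52 on the LIRKO arrays and 8.35, 8.16 and 8.41 on the Flox arrays, a difference of -0.32 (SE 0.26).

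*Aldh9a1*, which acts on betaine aldehydes and in carnitine synthesis, read 9.06, 7.40 and 7.99 on the LIRKO arrays and 9.15, 9.09 and 9.28 on the Flox arrays. Every LIRKO value was below every Flox value, but LIRKO 1 only by a small step. The mean was 8.15 ± 0.845 in LIRKO livers and 9.17 ± 0.101 in Flox livers, a difference of -1.03 (SE 0.39) or a 2.03-fold lower level. LIRKO 1, LIRKO 2 and LIRKO 3 stood at -0.11, -1.78 and -1.19, where the level group had medians of -0.01, -0.79 and -0.64. After cyclic loess -0.73 remained.

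*Aldh3a2*, the fatty aldehyde dehydrogenase of the endoplasmic reticulum, was the only gene of the list that LIRKO 1 read at least 0.5 above the Flox mean. Probe set 99559_at read 9.61, 8.38 and 8.68 on the LIRKO arrays and 8.83, 9.27 and 8.90 on the Flox arrays. Probe set 161401_f_at read 7.93, 7.41 and 7.78 on the LIRKO arrays and 7.18, 7.28 and 7.50 on the Flox arrays. Both stood 0.61 above the Flox mean on LIRKO 1, the 171st and the 169th highest of all probe sets. Over the 3 LIRKO arrays the differences were -0.11 (SE 0.32) and 0.39 (SE 0.17), and after cyclic loess 0.26 and 0.46, so the sign on 99559_at depended on the scaling. On both probe sets the groups overlapped.

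*Aldh3a1*, which is induced by aryl hydrocarbon receptor ligands in many tissues and is abundant in the cornea, read 7.13, 7.76 and 7.49 on the LIRKO arrays and 7.00, 7.19 and 7.04 on the Flox arrays with 162331_f_at. With 99548_at it read 6.14, 6.78 and 6.32 on the LIRKO arrays and 5.86, 6.17 and 5.94 on the Flox arrays. The groups overlapped on both, and the differences were 0.38 (SE 0.18) and 0.42 (SE 0.19), or 0.43 and 0.38 after cyclic loess. On both, LIRKO 1 lay within the Flox range, at 0.05 and 0.15 from the Flox mean, and LIRKO 2 and LIRKO 3 above it. *Aldh3a1* and *Aldh3a2* lie side by side on chromosome 11, at chr11:61208510-61218418 and chr11:61223417-61267528 of GRCm38.p6. Probe sets whose names end in _s_at or _f_at may read more than 1 transcript.

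Over the family as a whole, the direction of the LIRKO difference followed the level of the probe set. All 7 probe sets above the 80th percentile of Flox levels had a difference below 0, with a median of -1.03, as had 80.1% of the 2485 probe sets of the array in that range, with a median of -0.46. All 6 probe sets at or below the 65th percentile had a difference above 0, with a median of 0.38, as had 63.7% of the 8074 probe sets of the array there, with a median of 0.09. These percentiles were set after the values were seen, and no family probe set lay between them. The median difference over all 13 was -0.11, against 0.01 for all probe sets, and on LIRKO 1 alone it was 0.091, against -0.02.

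In limma, a linear model fitted to each probe set with a spread partly shared across all of them and with Benjamini-Hochberg adjustment over the array, 0 of the 13 probe sets passed an adjusted p of 0.05, beside 16 of 12422 on the array (0.129%), 9 of them higher (0.0725%) and 7 lower (0.0564%) in LIRKO livers. At an unadjusted p under 0.05 there were 5 of the 13, 1 higher and 4 lower in LIRKO livers, beside 20.9% of the array, 7.43% higher and 13.5% lower. The methods' unequal variance test called 0 of the 13 after adjustment, as it did over the array, and 1 without it, beside 5.86% of the array. The groups did not overlap on 3 of the 13, all lower in LIRKO livers, beside 24.7% in either direction and 14.9% lower on the array. Nothing was read from these counts, since the genes were chosen on the same contrast.

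Without LIRKO 1, 11 of the 13 passed the threshold, beside 49.1% of the array. With LIRKO 1 as the only LIRKO array, where the spread came from the Flox arrays alone, 1 of the 13 was past it, *Aldh1a7*, beside 0.725%. That fit has no replicate in LIRKO livers and tests nothing about *Aldh1a7*, which was chosen with these arrays in view. On LIRKO 1, 2 of the 13 were lower than the Flox mean by 0.5 or more, *Aldh1a7* and the bright *Aldh1a1* probe set, beside 1.38% of the array. The 2 probe sets of *Aldh3a2* were higher by as much, beside 2.20% of the array.

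**Figure D3:**
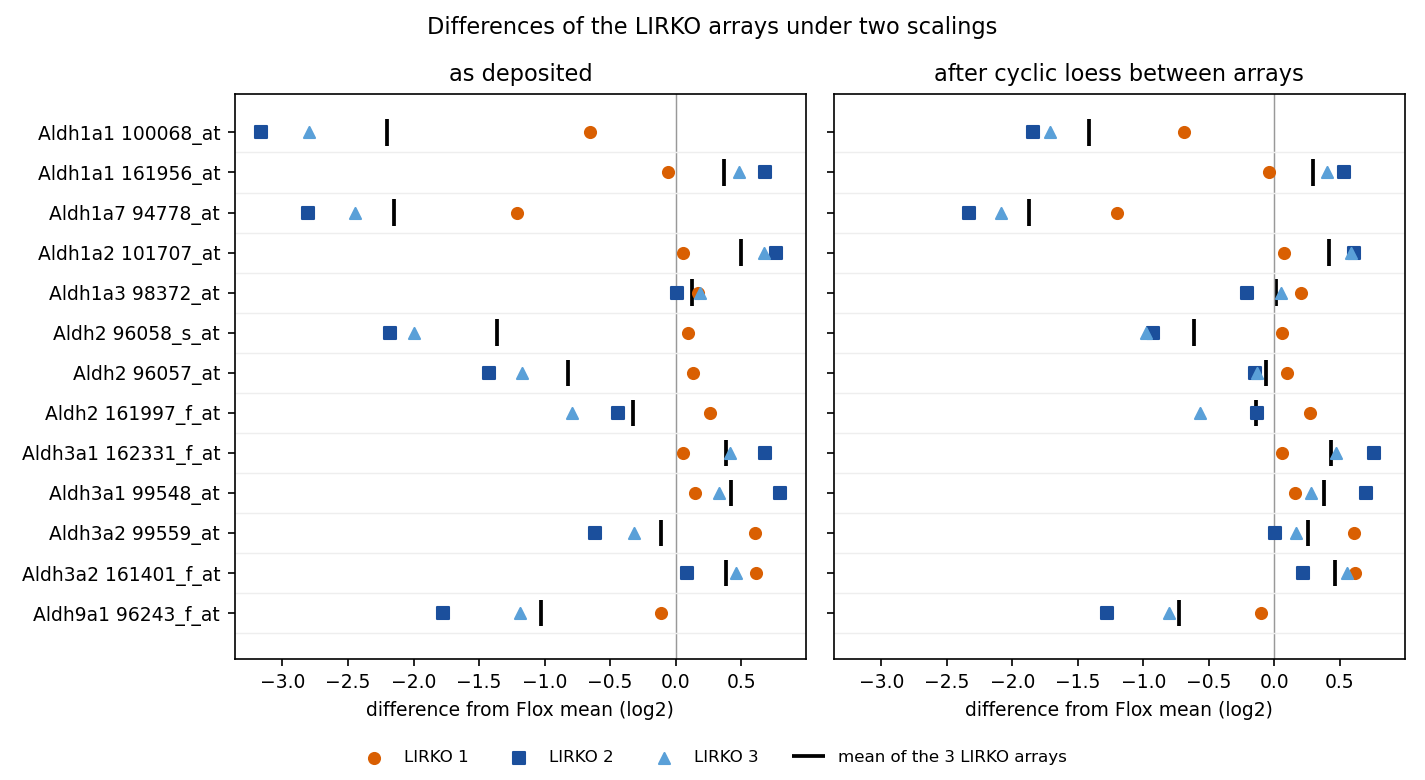
Difference of LIRKO 1, LIRKO 2 and LIRKO 3 from the Flox mean (horizontal axis, log2) for each aldehyde dehydrogenase probe set (rows), as deposited (left) and after cyclic loess between arrays (right), with the mean of the 3 LIRKO arrays as a bar. The bright *Aldh1a1* probe set and *Aldh1a7* stay below 0 on all 3 arrays in both panels, at means of -2.21 and -2.15 on the left and -1.42 and -1.87 on the right, while 96057_at of *Aldh2* moves to -0.06.

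The probe sets whose pattern was most like that of *Aldh1a7* were sought among 10820 others with 1 gene symbol, by the root mean square of the gap between their differences from the Flox mean over the 6 arrays. The nearest was *Cyp7b1*, the oxysterol hydroxylase of the alternative bile acid pathway, at 0.0876. It was followed by *Saa4*, a constitutive serum amyloid, at 0.152, *Serpina12*, which encodes vaspin, at 0.172, *Orm1*, an acute phase plasma protein, at 0.187, and *Abcd3*, a peroxisomal membrane transporter, at 0.209. *Cyp7b1* stood at -1.26, -2.67 and -2.59 on LIRKO 1, LIRKO 2 and LIRKO 3, beside -1.21, -2.81 and -2.45 for *Aldh1a7*. Within the family, the bright *Aldh1a1* probe set was the nearest, at 0.359 and 32nd in the order, before 96058_s_at of *Aldh2* at 0.636 and *Aldh9a1* at 0.810. With 6 arrays in 2 groups these distances mostly describe the size of the LIRKO difference on each array.

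The pathways around the family were read from 5 gene lists. In the retinoid list, 23 of 37 genes were measured by 27 probe sets, and 0 passed an adjusted p of 0.05 in limma, with 1 higher and 9 lower in LIRKO livers at an unadjusted p under 0.05, beside 7.43% higher and 13.5% lower on the array. The list's median difference was -0.20 with all LIRKO arrays and -0.04 on LIRKO 1. *Rara*, a retinoic acid receptor, read 6.09, 6.10 and 6.09 on the LIRKO arrays and 6.46, 6.51 and 6.45 on the Flox arrays, and its difference of -0.38 (limma adjusted p = 0.237) was alike on all 3 LIRKO arrays. *Ttr*, which carries retinol-binding protein in plasma, differed by -1.88 and by -0.61 on LIRKO 1. *Rdh11*, a retinal reductase, differed by -1.07 on 99592_f_at and by -0.41 on LIRKO 1, but its other probe set, 99591_i_at, differed by 0.11 (adjusted p = 0.833), or 0.71 after cyclic loess. *Ces1g*, a carboxylesterase, differed by -1.09, with -0.44 on LIRKO 1. *Ttr*, 99592_f_at of *Rdh11* and *Ces1g* had the same limma adjusted p as *Rara*, 0.237.

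In the ethanol and aldehyde list, 20 of 29 genes were measured by 24 probe sets, and 0 passed, with 0 higher and 10 lower at an unadjusted p under 0.05, beside the array's 7.43% and 13.5%. The median difference was -0.61, but -0.04 on LIRKO 1 and -0.03 after cyclic loess. *Aox1*, an aldehyde oxidase, read 8.05, 7.33 and 7.33 on the LIRKO arrays and 8.76, 8.54 and 8.76 on the Flox arrays. *Adh4*, an alcohol dehydrogenase that also takes retinol, read 7.42, 6.48 and 6.53 on the LIRKO arrays and 8.30, 7.99 and 8.15 on the Flox arrays with 103982_s_at. The differences were -1.12 for *Aox1*, and -1.34 for *Adh4* and -1.32 on its other probe set, with LIRKO 1 at -0.63, -0.73 and -0.47. *Ugdh*, which makes UDP-glucuronate, differed by -0.70, and by -0.06 after cyclic loess. All had an adjusted p of 0.237 in limma, and on each the LIRKO values lay below the Flox values.

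Of 12 further aldehyde dehydrogenase genes, 2 were measured, by 5 probe sets, of which 0 passed in limma, with 0 higher and 3 lower at an unadjusted p under 0.05, beside 7.43% and 13.5% of the array. *Aldh18a1*, which makes the proline precursor pyrroline-5-carboxylate, read 5.88, 5.76 and 5.61 on the LIRKO arrays and 6.20, 6.48 and 6.02 on the Flox arrays, a difference of -0.48 (adjusted p = 0.237), and on its dim probe set it differed by 0.20 (adjusted p = 0.445). *Aldh7a1*, of lysine breakdown, differed by -1.44 and -1.33 on its bright probe sets, where LIRKO 1 stood at -0.05 and -0.03 and cyclic loess left -0.72 and -0.59, and by 0.78 on its dim one. Their adjusted p was 0.237, 0.237 and 0.240. In the carnitine list, 7 of 10 genes were measured by 10 probe sets, and 0 passed, with 2 higher and 2 lower at an unadjusted p under 0.05, beside 7.43% and 13.5% over the array. *Cpt2*, the inner mitochondrial carnitine transferase, differed by -0.89 on its bright probe set, or -0.23 after cyclic loess, and by 1.14 on its dim one, with LIRKO 1 at -0.10 and 0.04. *Shmt1*, the cytosolic serine hydroxymethyltransferase, differed by -1.10 on 98459_at and by -0.17 on 104700_at (adjusted p = 0.483), and LIRKO 1 stood at -0.11 on 98459_at. *Shmt2*, its mitochondrial counterpart, differed by 0.70, with LIRKO 1 at 0.08. Apart from 104700_at, these probe sets had an adjusted p of 0.237 in limma.

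In the list of the response to foreign compounds, 24 of 26 genes were measured by 32 probe sets. In limma, 1 was higher and 0 lower at an adjusted p of 0.05, beside 0.0725% higher and 0.0564% lower on the array. At an unadjusted p under 0.05, 6 were higher and 5 lower, beside 7.43% and 13.5% of the array. *Cyp2b9*, a cytochrome P450 that female mouse liver expresses more than male liver, read 10.49, 8.96 and 9.46 on the LIRKO arrays and 6.16, 6.21 and 6.02 on the Flox arrays. Its difference was 3.51 (SE 0.36, adjusted p = 0.0384), but it did not pass in any fit that left out a Flox array, LIRKO 2 or LIRKO 3, with the replicate number as a block, or in the methods' unequal variance test. *Cyp2b10*, a target of the constitutive androstane receptor, and *Cyp2b13* differed by 2.01 (adjusted p = 0.0548) and 1.10 (adjusted p = 0.0665), with every LIRKO value above every Flox value. These 3 are close paralogs, and whether their probes read each other was not tested. *Gclc*, a subunit of glutamate-cysteine ligase, differed by -0.48 (adjusted p = 0.237), and by -0.04 after cyclic loess. The list's median difference was 0.12.

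**Figure D4:**
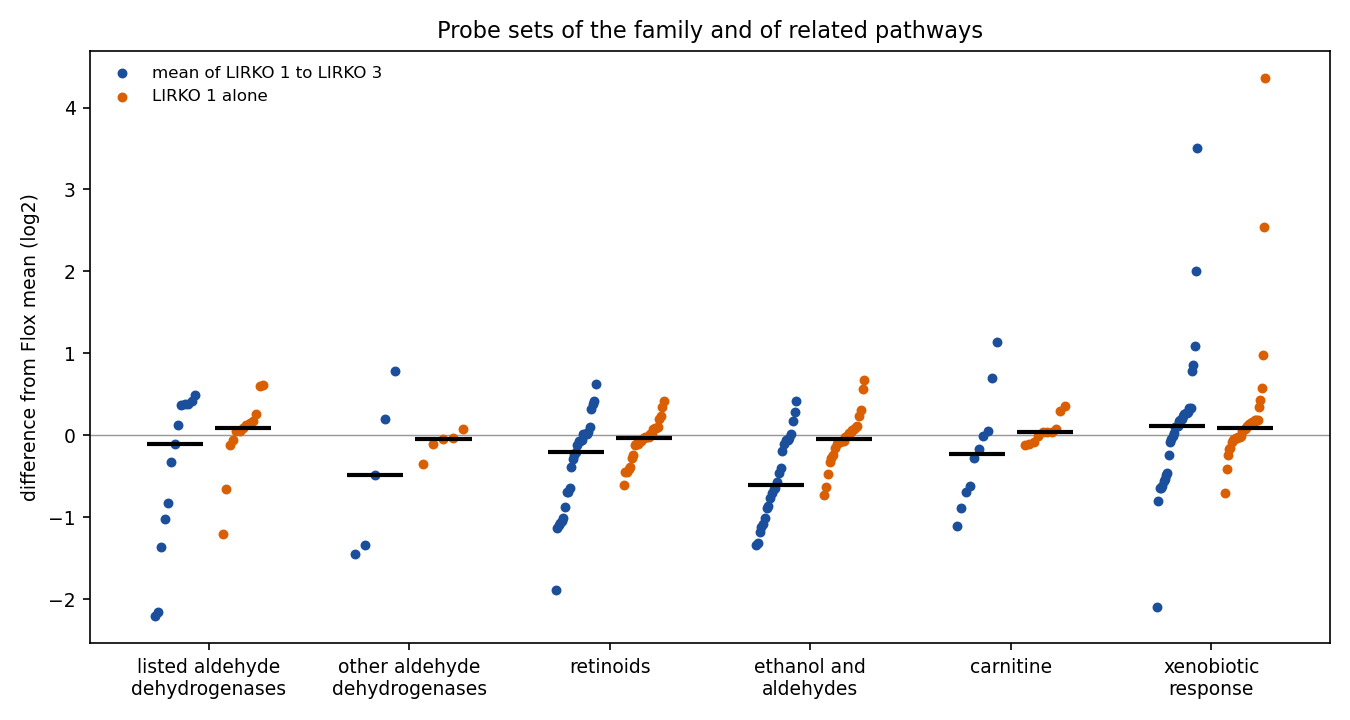
Difference from the Flox mean (vertical axis, log2) of each probe set of the listed aldehyde dehydrogenases and of 5 related gene lists, as the mean of the 3 LIRKO arrays (blue) and on LIRKO 1 alone (orange), with the median of each set as a bar. The ethanol and aldehyde list has its median at -0.61 with all LIRKO arrays and at -0.04 on LIRKO 1.

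Of 11 lists of cell type markers, 0 markers passed an adjusted p of 0.05 in limma, beside 0.129% of the array. The 8 markers of hepatocytes, the cells expected to hold most of the family, were all measured. Their summed level, taken on the linear scale and given as log2, was 16.30, 15.68 and 15.64 on LIRKO 1, LIRKO 2 and LIRKO 3. On the Flox arrays it was 16.19 to 16.27. The median Flox percentile of these markers was 99.7, within the brightest level group. That group had median differences of -1.46 on LIRKO 2 and -1.27 on LIRKO 3. For stellate cells, where retinol is stored, 6 of 8 markers were measured, with a summed level of 11.06 to 11.78 on the LIRKO arrays and 10.54 to 11.14 on the Flox arrays. The summed levels did not overlap between the groups in 2 of the 11 lists, mesothelial cells and pancreas, both lower in LIRKO livers. Over the array, 24.7% of single probe sets did not overlap, 14.9% lower in LIRKO livers. The 4 measured of 5 mesothelial markers gave 9.63 to 10.4 on the LIRKO arrays and 10.6 to 10.8 on the Flox arrays. Most of that sum was *Krt8*, a keratin of epithelia, which differed by -1.07, while *Msln*, *Upk3b* and *Wt1* differed by -0.08, -0.06 and 0.58. The 3 measured of 5 pancreas markers gave 9.63 to 10.2 on the LIRKO arrays and 10.7 to 10.8 on the Flox arrays, and *Cela1*, *Prss2* and *Ins2* differed by -1.31, -0.99 and -0.34. The part of the cell mixture in the differences above was not tested.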

How the data were processed

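The authors processed the raw array data in R with affy and limma, using robust multichip averaging (RMA). Its version, and whether the 6 arrays were normalized in 1 run, are not given in the sources used here. The deposited values are log2 levels, with 1 per probe set for each array, and were not scaled again. Of 12488 probe sets, 66 array controls were left out and 12422 were fitted. LIRKO and Flox were compared with limma 3.58.1 (lmFit, eBayes) in R 4.3.3, with Benjamini-Hochberg adjustment over all probe sets and a threshold of 0.05, checked on simulated data first. Arrays of a group are separate RNA pools, so p-values measure the spread between pools. Depth has no meaning for arrays, and their number limits the precision. Symbols came from the platform annotation. Of 10833 probe sets with 1 symbol, 10817 matched the current gene table and 16 did not, 396 had several symbols and 1193 none. Promoters were RefSeq's (GRCm38.p6), aligned with Biopython 1.88, with none matched for *Aldh2*, *Aldh1a3* and *Aldh3a1*.

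The members and the gene lists were chosen with earlier results of these data known, and the 50 level groups after the values were seen. Named were all members, in each list the genes past the threshold and up to 4 with the smallest p, and the 5 probe sets most like *Aldh1a7*. The alternatives were quantile normalization, cyclic loess, median centring, a filter on the dimmest 25%, a trended robust variance, a replicate block, the methods' unequal variance t-test, LIRKO 1 alone, and each array left out.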

Additional observations from a re-analysis of the deposited data

How the results depend on the processing

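The 16 calls over the array became 40 after cyclic loess, 0 with the methods' t-test (728 without adjustment, against 2602 in limma), 90 with LIRKO 1 as the only LIRKO array, and 2 (without LIRKO 2) to 6095 (without LIRKO 1) with an array left out. The 0 calls among the 13 aldehyde dehydrogenase probe sets became 11 without LIRKO 1 and 1 with LIRKO 1 as the only LIRKO array, and leaving out an array gave 0 to 11. Without LIRKO 1 the calls were 18 in the retinoid list, 18 in the ethanol and aldehyde list, 5 among the further aldehyde dehydrogenases and 7 in the carnitine list, and 0 in each with any other array left out. The 1 call in the list of foreign compounds became 2 after quantile normalization and with the dim filter, 3 after cyclic loess, with the trended variance and with LIRKO 1 as the only LIRKO array, 0 with the t-test, and 0 to 18 with an array left out. The family's median of -0.11 became 0.009 after quantile normalization and 0.015 after cyclic loess. With LIRKO 1 as the only LIRKO array it was 0.091, and with an array left out it was -0.47 (without LIRKO 1) to 0.14 (without LIRKO 2). The 3 probe sets without overlap became 5 after quantile normalization (25.8% of the array) and after cyclic loess (26%), 9 with LIRKO 1 as the only LIRKO array (55.6%), and 3 to 11 with an array left out, 11 being without LIRKO 1 (67.4%) and 5 without LIRKO 2 (30.5%), Flox 2 (38.7%) or Flox 3 (31.3%). *Aldh1a1* on 100068_at, *Aldh1a7* and *Aldh9a1* stayed without overlap after quantile normalization, cyclic loess and median centring. Leaving arrays out cannot make separated groups overlap, so those settings could not change this. After quantile normalization and after cyclic loess, the others were 99548_at of *Aldh3a1* and 161401_f_at of *Aldh3a2*, both higher in LIRKO livers. Their differences after cyclic loess were 0.38 and 0.46. Under every alternative, 8 of the 13 differences kept their sign, *Aldh1a7* ranging from -2.63 to -1.21, and 9 of 168 values changed sign. The causes were not tested.

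The groups share replicate numbers, but the sample labels do not say that same-numbered arrays belong together, so the numbers were not taken as pairs. Deviations of same-numbered arrays correlated at 0.32, 0.40 and 0.09, and those of arrays with different numbers at -0.37 to 0.17. Whether the numbers mark pairs was not tested. With the replicate number as a block there were 11 calls over the array, 0 in the family and 0 in the list of foreign compounds.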
